A study of Mus musculus with 12 samples.

Results

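Transcripts of 10 regulators of mitochondrial biogenesis were followed in mouse liver across a normal diet, a high-fat diet and 2 forms of exercise on the high-fat diet. The genes were picked by name for their roles, with no cut-off on a measured value, and are 10 of the 55291 genes in the count table. They are the coactivators Ppargc1a and Ppargc1b, the transcription factors Esrra and Nrf1, the AMPK catalytic subunits Prkaa1 and Prkaa2, the sirtuins Sirt1 and Sirt3, and Tfam and Polg, which act on mitochondrial DNA. All 10 had enough counts to be tested, among 18305 genes that did. The series concerns exercise in mice with non-alcoholic fatty liver disease, and its RNA-seq libraries were made from total RNA of liver.

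The mice were C57BL/6 males that entered at 6 weeks of age and adapted for 1 week. HFD+RE mice ate the high-fat diet D12492 for 8 weeks and then trained on it for at least 12 weeks in a form of exercise named RE. HFD+AE mice had the same diet and times with a form named AE, HFD mice had the diet without training, and NC mice had the normal diet. AE and RE are not spelled out in the labels. Each group gave 3 libraries, numbered HFD+RE 3, 4 and 5, HFD+AE 1, 2 and 3, HFD 1, 2 and 3, and NC 2, 4 and 5, and values below keep this order. Separate animals are not stated for the libraries of a group, so p-values measure the spread between these samples only, which may be technical.

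Mitochondrial biogenesis couples nuclear transcription to the copying and reading of mitochondrial DNA. The AMP-activated kinase AMPK and the NAD-dependent deacetylase SIRT1 sense a low energy charge and act on the coactivator PGC-1alpha, encoded by Ppargc1a, which binds transcription factors such as ERRalpha and NRF1, and these raise the transcription of TFAM and of respiratory genes. In muscle, endurance exercise is known to raise Ppargc1a transcripts. In liver, PGC-1alpha is also known for inducing gluconeogenesis in fasting, and much of the control of AMPK and of sirtuins acts on the proteins, which RNA does not show.

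Total counts per library ran from 44373214 to 77665729. HFD+AE 3 and HFD+RE 3 each stood apart from the other two libraries of their group. On the first principal component of log2 CPM (CPM being counts scaled to a common library total after TMM normalisation), which held 40.6% of the variance, HFD+RE 3 lay at -36.6 and HFD+RE 4 and 5 at 50.4 and 52.6, while HFD+AE 3 lay at 14 and HFD+AE 1 and 2 at -40.4 and -36.9. HFD libraries lay at 23 to 80.8 and NC libraries at -72.7 to -40.2. The summed level of 10 hepatocyte markers, none of them at 0 in any library and most of the sum from Alb, was 102000 to 123000 CPM in HFD+RE, 110000 to 129000 in HFD+AE, 72100 to 92500 in HFD and 119000 to 135000 in NC. Other cell types also moved: 10 endothelial markers summed to 108 to 262, 211 to 348, 122 to 182 and 249 to 303 CPM in the same group order, 12 macrophage markers to 57.1 to 346, 231 to 361, 106 to 237 and 238 to 397 CPM, and 10 stellate cell markers to 248 to 354, 280 to 298, 292 to 401 and 154 to 172 CPM. In that order 14 T, NK and B cell markers summed to 26.2 to 51.8, 24.7 to 31.7, 27.6 to 78.5 and 17.6 to 32.6 CPM. Genes within a list could differ in direction in HFD vs NC. There 2 endothelial markers were higher and 8 lower, and 4 macrophage markers were higher and 8 lower. All 10 stellate cell markers and all 14 T, NK and B cell markers were higher. Skeletal muscle markers summed to at most 1.36 CPM, with 1 of those 10 genes abundant enough to test and Myh7 at 0 in all 12 libraries.

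High-fat feeding was accompanied by lower transcripts of the polymerase that copies mitochondrial DNA and of one AMPK catalytic subunit, and not by a called change of either PGC-1 coactivator. Polg was 44.8% lower and Prkaa1 36% lower in HFD than in NC. Of all genes tested 15.6% were called in this comparison, and the share of the regulators was near that background. The call on Polg ended in 4 of 20 alternative fits and that on Prkaa1 in 9. No other regulator passed the test in any of 6 comparisons between groups. Prkaa2 and Sirt1 were also lower in each HFD library than in each NC library, as were 22.1% of all genes. In HFD+AE the levels of Polg and Prkaa2 lay above those of HFD in all 3 libraries, with adjusted p of 0.061 and 0.085. The same separation held for 15.8% of all genes. In HFD+RE, Ppargc1b and Esrra lay above HFD in all 3 libraries, with adjusted p of 0.52 and 0.67. Here 7.15% of all genes were separated in this way. In bulk liver, fewer cells of a type and less RNA per cell cannot be told apart.

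**Figure D1:**
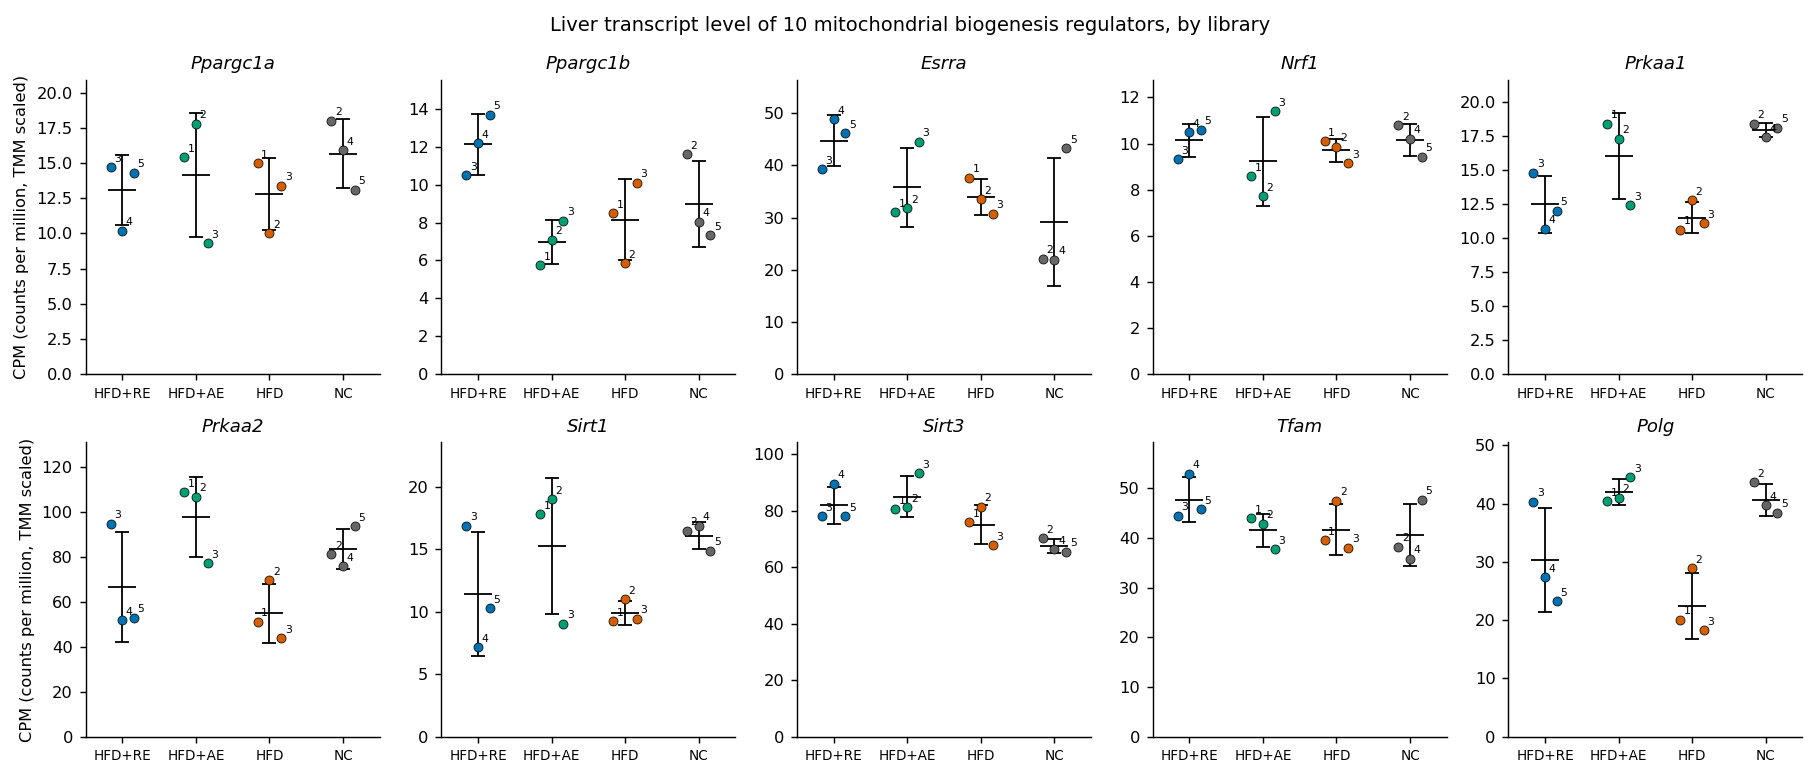
Level of each of the 10 genes in CPM (vertical axes, from 0) in every library, with groups HFD+RE, HFD+AE, HFD and NC from left to right; points are libraries with their number, the long dash is the mean of 3 and the bar its SD. Polg, Prkaa1, Prkaa2 and Sirt1 are lower in all 3 HFD libraries than in all 3 NC libraries, and for each of these genes HFD+RE 3 stands above HFD+RE 4 and 5.

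The comparison HFD vs NC asked what the diet did. Over the 18305 genes tested, 15.6% were called at an adjusted p below 0.05, 8.38% as higher and 7.19% as lower. Of the 10 regulators 2 fell, 0 rose and 8 did not pass, a share near that background. With upper-quartile scaling the calls over all genes split into 2037 that rose and 953 that fell, against 1534 and 1317 with TMM scaling. The median log2 change was -0.22 over the 10 regulators and 0.01 over all genes tested. The libraries of HFD and NC did not overlap for 4 regulators, all lower in HFD, against 22.1% of all genes lower without overlap. DESeq2 also called 2 of the 10, against 23.8% of all genes.

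Prkaa1 and Prkaa2 encode the alternative catalytic subunits of AMPK, and liver uses both. Prkaa1, on chromosome 15 (5143861 to 5181899, plus strand, mm10), had 14.8, 10.7 and 12 CPM in HFD+RE, 18.4, 17.3 and 12.4 in HFD+AE, 10.6, 12.8 and 11.1 in HFD, and 18.4, 17.4 and 18.1 in NC. The NC libraries lay close together and above every HFD library, while HFD+AE 3 and HFD+RE 4 and 5 lay within the HFD range. Prkaa1 fell in HFD vs NC by 0.64 on the log2 scale (SE 0.19, adjusted p = 0.038), with means of 11.5 ± 1.16 CPM in HFD and 18 ± 0.529 CPM in NC (SD, n = 3 each). Dropping NC 2 (adjusted p = 0.1), NC 4 (0.094), NC 5 (0.072), HFD 1 (0.15), HFD 3 (0.15) or HFD+AE 2 (0.054) ended the call, as did upper-quartile scaling (0.065), library totals only (0.15) or no low-count filter (0.064).

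Prkaa2, on chromosome 4 (105029874 to 105109890, minus strand), was the more abundant of the pair. It had 94.9, 52 and 53 CPM in HFD+RE, 109, 107 and 77.3 in HFD+AE, 51.3, 69.7 and 44 in HFD, and 81.3, 76 and 93.7 in NC. Every HFD library lay below every NC library and every HFD+AE library, and HFD+RE spanned both ranges. The log2 difference was -0.61 in HFD vs NC (SE 0.26, adjusted p = 0.11) and 0.83 in HFD+AE vs HFD (SE 0.26, 95% interval 0.27 to 1.38, adjusted p = 0.085), so neither passed. Against NC the adjusted p was 0.043 without HFD+RE 3 and 0.042 with only those groups fitted, where 23.5% and 28.7% of all genes passed. Per kilobase of exon, Prkaa2 stood at 2.57 to 3.74 times Prkaa1 in HFD+RE, 3.44 to 3.64 times in HFD+AE, 2.33 to 3.18 times in HFD and 2.56 to 3.02 times in NC. The ratio in HFD+AE lay above that of each HFD and NC library.

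Sirt1 and Sirt3 encode NAD-dependent deacetylases, SIRT1 mainly nuclear and SIRT3 mitochondrial. Sirt1, on chromosome 10 (63319005 to 63381704, minus strand), had 16.9, 7.16 and 10.3 CPM in HFD+RE, 17.8, 19 and 9.06 in HFD+AE, 9.26, 11 and 9.47 in HFD, and 16.5, 16.9 and 14.9 in NC. HFD lay below NC without overlap, and within each exercise group 1 library departed from the others: HFD+RE 3 was at the NC level, and HFD+AE 3 was below all 3 HFD libraries. Its log2 difference was -0.70 in HFD vs NC (SE 0.31, adjusted p = 0.12) and 0.63 in HFD+AE vs HFD (SE 0.31, 95% interval -0.03 to 1.29, adjusted p = 0.21); with only HFD and NC fitted, the adjusted p against NC was 0.011. Sirt1 had the widest span of the 10 genes, with the highest library 2.66 times the lowest.

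Sirt3, on chromosome 7 (140863666 to 140882309, minus strand), varied least, with the highest library 1.42 times the lowest. It had 78, 89.5 and 78 CPM in HFD+RE, 80.4, 81.1 and 93.2 in HFD+AE, 75.9, 81.4 and 67.7 in HFD, and 70.3, 66.4 and 65.5 in NC. Both exercise groups lay above NC without overlap, with log2 differences of 0.28 in HFD+RE vs NC (SE 0.15, adjusted p = 0.27) and 0.33 in HFD+AE vs NC (SE 0.15, adjusted p = 0.34). Per kilobase, Sirt3 was 4.12 to 11.2 times Sirt1 in HFD+RE, 3.8 to 9.18 times in HFD+AE, 6.38 to 7.31 times in HFD and 3.51 to 3.92 times in NC. The exons of Sirt3 share 342 bases with Psmd13 (38 to 75.8 CPM) and 418 bases with Ric8a (17.4 to 26.6 CPM) on the other strand, and the strand setting of the counting is not given in the sources used here, so part of its count may come from those genes.

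Tfam encodes the factor that packages mitochondrial DNA and starts its transcription, and Polg the catalytic subunit of the polymerase that copies it. Both promoters hold the letters CCGGAAG, a core bound by ETS factors such as NRF2 (GABP), while the promoter of Prkaa1 holds AAGATGGC, a core bound by YY1. The promoters of the 2 genes that fell, and of Tfam, which shares a motif with Polg, are shown with the matches in capitals, each 5′ to 3′ on the gene's own strand from 250 bases before to 50 after the start site (RefSeq, GRCm38.p6: Polg chr7:79466224-79466523, Tfam chr10:71237995-71238294, Prkaa1 chr15:5143611-5143910).
Polg: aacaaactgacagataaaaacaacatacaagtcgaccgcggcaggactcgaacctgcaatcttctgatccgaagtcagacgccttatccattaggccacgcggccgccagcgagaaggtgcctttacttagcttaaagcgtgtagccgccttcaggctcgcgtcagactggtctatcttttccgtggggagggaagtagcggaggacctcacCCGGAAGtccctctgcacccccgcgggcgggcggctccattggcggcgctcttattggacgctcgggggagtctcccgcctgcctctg
Tfam: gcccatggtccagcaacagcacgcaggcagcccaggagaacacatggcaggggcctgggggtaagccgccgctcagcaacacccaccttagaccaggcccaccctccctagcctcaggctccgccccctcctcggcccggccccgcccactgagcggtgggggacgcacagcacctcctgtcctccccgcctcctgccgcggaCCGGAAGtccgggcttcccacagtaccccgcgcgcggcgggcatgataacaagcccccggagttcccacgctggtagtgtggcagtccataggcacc
Prkaa1: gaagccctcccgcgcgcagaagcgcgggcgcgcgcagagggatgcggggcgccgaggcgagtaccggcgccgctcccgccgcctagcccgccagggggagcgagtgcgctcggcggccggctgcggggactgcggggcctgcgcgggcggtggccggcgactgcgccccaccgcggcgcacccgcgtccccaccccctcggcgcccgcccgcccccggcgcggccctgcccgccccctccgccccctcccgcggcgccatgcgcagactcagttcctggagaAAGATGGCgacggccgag
Of 32851 promoters of 300 bases, 8.86% hold CCGGAAG and 2.75% hold AAGATGGC on either strand. Promoters were matched for 9 of the 10 genes, and CCGGAAG also occurs in 1 of the Sirt3 start sites, on the reverse strand. The other motifs searched on both strands were the NRF1 palindrome (4.6% of all promoters), AAGGTCA (ERR, 4.72%), TGACGTCA (cAMP response element, 1.79%) and GTAAACA (FOXO, 3.65%), and none of them occurs in these windows. The matches in the 3 promoters do not overlap another motif of the set.

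Polg, on chromosome 7 (79446231 to 79466362, minus strand), had 40.3, 27.4 and 23.3 CPM in HFD+RE, 40.4, 41 and 44.5 in HFD+AE, 20.1, 28.9 and 18.3 in HFD, and 43.7, 39.7 and 38.4 in NC. All HFD+AE libraries, HFD+AE 3 included, lay at the NC level and all HFD libraries below it, whereas in HFD+RE only library 3 reached the NC level. Polg fell in HFD vs NC by 0.86 (log2, SE 0.22, adjusted p = 0.025), with means of 22.4 ± 5.65 CPM in HFD and 40.6 ± 2.75 CPM in NC (SD, n = 3 each). Relative to HFD, the HFD+AE level differed by 0.90 (SE 0.22, 95% interval 0.43 to 1.38, adjusted p = 0.061), and relative to NC by 0.05 (SE 0.22, adjusted p = 0.95). Dropping NC 2 (0.076), NC 4 (0.071), HFD 1 (0.11) or HFD 3 (0.13) ended the call against NC.

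Changes went with gene length in part of the comparisons. The tested genes were put in 5 equal bins by length. The median log2 change in HFD vs NC ran from 0.43 in the shortest bin to -0.27 in the longest. In HFD+AE vs HFD it ran from -0.43 to 0.24, and in HFD+AE vs NC from -0.03 to -0.05. For HFD+RE it ran from 0.35 to -0.17 against HFD+AE, from 0.30 to -0.20 against NC and from -0.08 to 0.10 against HFD. The rank correlation of centred level with length also differed within groups. It was 0.22, -0.29 and -0.31 in HFD+RE and 0.29, 0.29 and -0.03 in HFD+AE. In HFD it was -0.26, -0.15 and -0.29, and in NC 0.2, 0.21 and 0.08. The source of this trend was not tested. Polg, at 10742 exon bases, and Prkaa2, at 7969, are in the longest bin, which starts at 6652 bases, and the 10 regulators have a median of 5652 bases against 3548 over the genes tested. With the trend on length removed from each library, Polg stood at -0.64 (adjusted p = 0.042) and Prkaa1 at -0.64 (0.028) in HFD vs NC; with length and GC content removed they stood at -0.66 (0.02) and -0.60 (0.01). Polg shares 921 exon bases with Fanci on the other strand, which had at most 0.133 CPM. The hepatocyte marker sum was also lowest in HFD, and the markers did not move alike: of 10, 5 fell in HFD vs NC, Alb among them (-0.90, adjusted p = 0.031), while Apoa2 stood at 1.05 (adjusted p = 0.1) and Ttr at 0.55 (0.28). The part of cell composition in the values of Polg and Prkaa1 was not tested.

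Tfam, on chromosome 10 (71225464 to 71238280, minus strand), did not follow Polg. It had 44.5, 52.9 and 45.8 CPM in HFD+RE, 44, 42.9 and 37.7 in HFD+AE, 39.6, 47.5 and 38 in HFD, and 38.2, 35.8 and 47.7 in NC. The HFD range lay inside that of NC, with a log2 difference of 0.04 (SE 0.17, 95% interval -0.32 to 0.40, adjusted p = 0.88). HFD+RE lay just above HFD+AE without overlap, by 0.20 (SE 0.17, adjusted p = 0.68). The ratio of Tfam to Polg per kilobase was 2.68 to 4.77 in HFD+RE, 2.05 to 2.64 in HFD+AE, 3.98 to 5.02 in HFD and 2.12 to 3.01 in NC. The HFD ratios thus stood above all those of HFD+AE and NC. Tfam has 4438 exon bases and Polg 10742. The ratio was 2.68 in HFD+RE 3, where the correlation of level with length was 0.22. It was 4.67 and 4.77 in HFD+RE 4 and 5, where that correlation was -0.29 and -0.31. The part of the length trend in this ratio was not tested.

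The coactivators moved little with the diet. Ppargc1a, on chromosome 5 (51454250 to 51567726, minus strand), had 14.7, 10.2 and 14.3 CPM in HFD+RE, 15.4, 17.8 and 9.29 in HFD+AE, 15, 10 and 13.4 in HFD, and 18, 15.9 and 13.1 in NC. All 4 groups overlapped. Its log2 difference was 0.03 in HFD+RE vs HFD (95% interval -0.51 to 0.57, adjusted p = 0.98), 0.15 in HFD+AE vs HFD (-0.40 to 0.69, adjusted p = 0.74) and -0.29 in HFD vs NC (-0.83 to 0.26, adjusted p = 0.43).

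Ppargc1b encodes PGC-1beta, which shares many partners with PGC-1alpha and is known in liver for its part in lipogenic transcription. Located on chromosome 18 (61298136 to 61400431, minus strand), it had 10.5, 12.2 and 13.7 CPM in HFD+RE, 5.76, 7.09 and 8.11 in HFD+AE, 8.51, 5.87 and 10.1 in HFD, and 11.6, 8.05 and 7.33 in NC. Every HFD+RE library lay above every HFD and HFD+AE library, HFD+RE 3 included, and the HFD+AE range fell mostly inside that of HFD. The log2 difference was 0.57 in HFD+RE vs HFD (SE 0.24, 95% interval 0.04 to 1.09, adjusted p = 0.52) and 0.79 in HFD+RE vs HFD+AE (SE 0.24, 0.27 to 1.32, adjusted p = 0.61). Per kilobase, Ppargc1b stood at 1.18 to 1.97 times Ppargc1a in HFD+RE, 0.617 to 1.44 times in HFD+AE, 0.939 to 1.24 times in HFD and 0.837 to 1.06 times in NC.

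Esrra encodes ERRalpha, the nuclear receptor through which PGC-1 coactivators reach many respiratory genes. On chromosome 19 (6910977 to 6921840, minus strand), it had 39.3, 48.8 and 46.1 CPM in HFD+RE, 31, 31.8 and 44.5 in HFD+AE, 37.6, 33.5 and 30.7 in HFD, and 22.1, 21.9 and 43.3 in NC. HFD+RE lay above HFD without overlap (0.40, SE 0.25, adjusted p = 0.67), and NC 5 stood far above NC 2 and 4. The exons of Esrra share 73 bases with Trmt112 (9.55 to 23.1 CPM) on the other strand and 91 with Mir6990 (0 CPM) on its own. Part of its count may therefore come from Trmt112. Esrra stood at 0.62 on the log2 scale in HFD+RE vs NC (SE 0.25, adjusted p = 0.16). Of 21 alternatives only 1 called it there, the fit that left out NC 5, with a value of 1.03 (0.026). In that fit 2.43% of all genes passed. NC 5 had the highest Esrra of the NC libraries, so the pass is not separate support for a difference.

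Nrf1 encodes nuclear respiratory factor 1 and was the least abundant per kilobase. On chromosome 6 (30047988 to 30153458, plus strand), it had 9.32, 10.5 and 10.6 CPM in HFD+RE, 8.57, 7.71 and 11.4 in HFD+AE, 10.1, 9.87 and 9.14 in HFD, and 10.8, 10.2 and 9.42 in NC. No pair of groups was separated, and the largest log2 difference in size among the 6 comparisons was 0.14 for HFD+RE vs HFD+AE and -0.14 for HFD+AE vs NC.

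**Figure D2:**
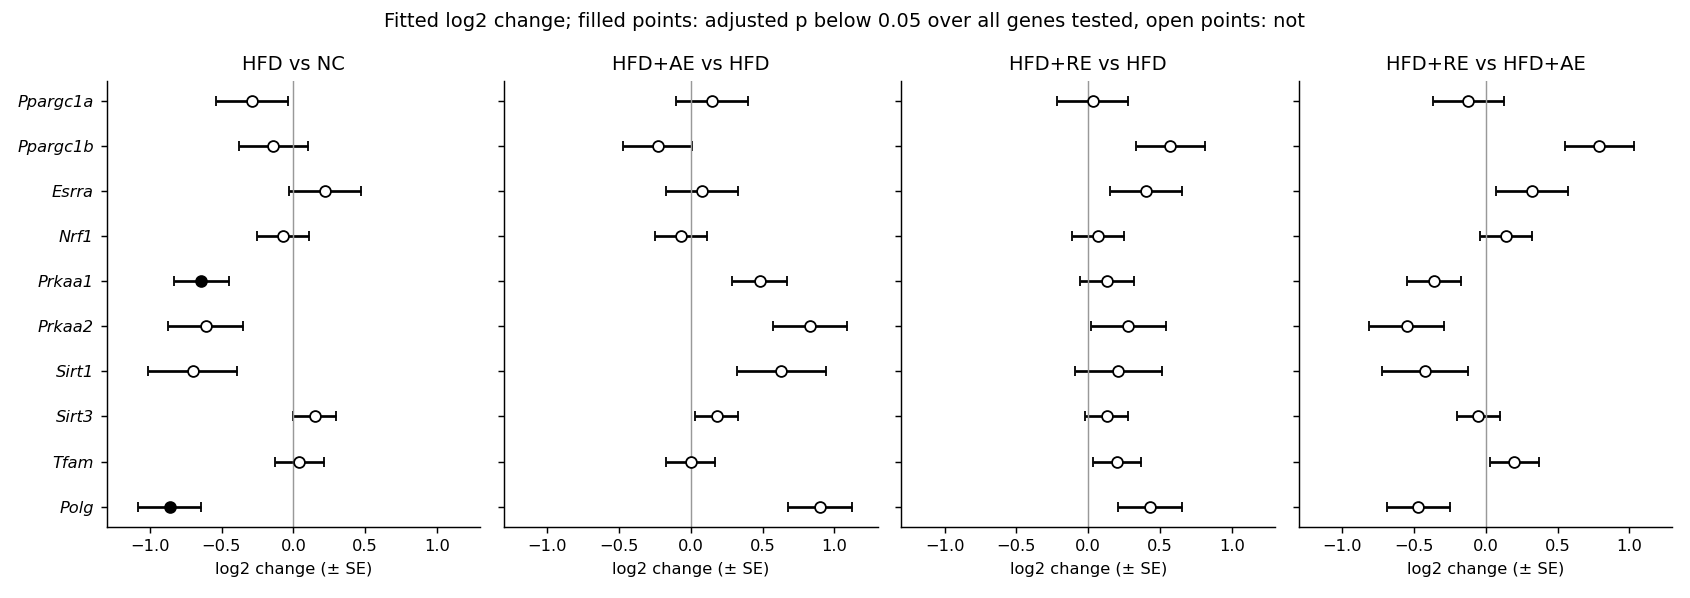
Fitted log2 change of each gene with its SE (horizontal axes) in HFD vs NC, HFD+AE vs HFD, HFD+RE vs HFD and HFD+RE vs HFD+AE; filled points passed the test over all genes, open points did not. Polg at -0.86 and Prkaa1 at -0.64 in HFD vs NC are the filled points.

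For AE training, HFD+AE vs HFD called 0.0492% of all genes. By edgeR's test 0 of the 10 regulators passed, 3 had an unadjusted p under 0.05 against 26.4% of all genes, and DESeq2 called Polg and Prkaa2 against 12.1% of all genes. The median log2 difference was 0.16 over the regulators and 0 over all genes. For 2 regulators, Polg and Prkaa2, all HFD+AE libraries were higher without overlap, against 15.8% of all genes. This comparison shares the HFD libraries with HFD vs NC, so that the 2 sets of values are not independent: Polg stood at 0.90 and -0.86, Prkaa2 at 0.83 and -0.61, Sirt1 at 0.63 and -0.70, and Prkaa1 at 0.48 and -0.64 in HFD+AE vs HFD and in HFD vs NC.

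The call on Polg in HFD+AE vs HFD changed with the fit, with an adjusted p from 0.0064 to 0.29 over 21 alternatives, of which 7 called it; Prkaa2 was also called in 7, with a range of 0.0067 to 0.33. Without HFD 2 the adjusted p was 0.025 for Polg and 0.043 for Prkaa2. HFD 2 was the HFD library with the highest level of both genes, so these passes are not separate support for a difference. Without HFD+RE 3, which enters this comparison only through the shared spread, the adjusted p was 0.02 and 0.029. Over all genes 8.93% passed without HFD 2 and 10.2% without HFD+RE 3. Without both HFD+AE 3 and HFD+RE 3, 4 regulators passed: Polg at 0.87 (adjusted p = 0.0096), Prkaa1 at 0.65 (0.0093), Prkaa2 at 0.98 (0.0067) and Sirt1 at 0.90 (0.0066). Each training group then rests on 2 libraries, and over all genes 4253 (22.5%) were called, against 9 with all 12 libraries. The omitted libraries were those seen to stand apart from their groups, so these calls are not separate support for a difference.

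**Figure D3:**
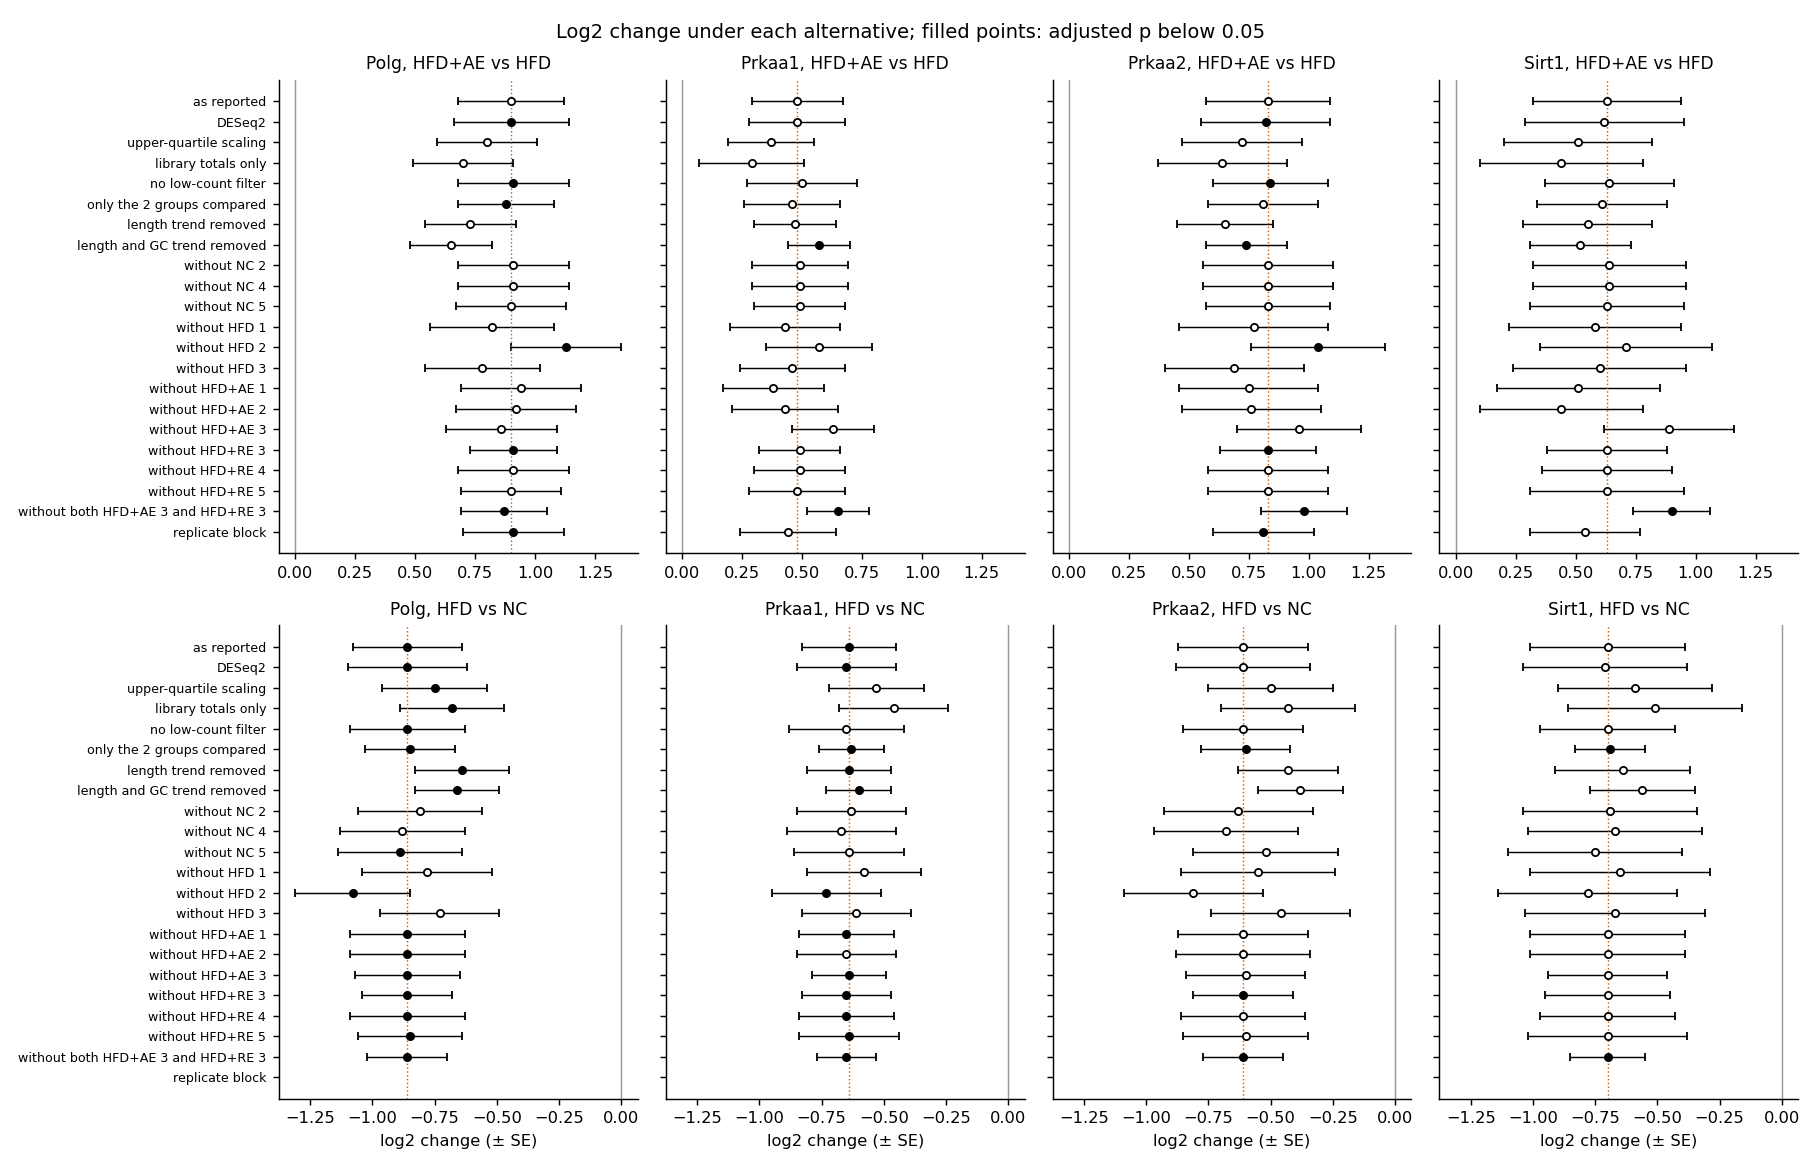
Log2 change with its SE (horizontal axes) of Polg, Prkaa1, Prkaa2 and Sirt1 in HFD+AE vs HFD (upper row) and HFD vs NC (lower row) as reported and under each alternative (rows); filled points have an adjusted p below 0.05, and the dotted line marks the value as reported. The values keep their sign in every row, from 0.29 to 1.13 above and from -1.08 to -0.38 below, while the points change between filled and open; the replicate block has no point in HFD vs NC, where it could not be fitted.

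For RE training, HFD+RE vs HFD called 0.0109% of all genes and 0 of the 10 regulators by edgeR, with 1 at an unadjusted p under 0.05 (Ppargc1b, against 8.77% of all genes) and 0 by DESeq2 (against 1.13%). The median was 0.21 over the regulators and 0.04 over all genes. Ppargc1b and Esrra were higher without overlap, against 7.15% of all genes. Polg stood at 0.43 (SE 0.22, 95% interval -0.04 to 0.91, adjusted p = 0.60) and Prkaa2 at 0.28 (SE 0.26, -0.27 to 0.83, adjusted p = 0.78).

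The direct comparison of the trained groups, HFD+RE vs HFD+AE, called 0% of all genes by edgeR, 1468 (8.02%) at an unadjusted p under 0.05 and 25 (0.137%) by DESeq2. None of the 10 regulators passed with either tool, and 1, Ppargc1b, had an unadjusted p under 0.05 (0.0061). The libraries did not overlap for 3 regulators, with Ppargc1b and Tfam higher and Polg lower in HFD+RE, against 5.88% of all genes higher and 5.4% lower. Polg differed by -0.47 (SE 0.22, adjusted p = 0.61) and Prkaa2 by -0.55 (SE 0.26, adjusted p = 0.61). Median changes went with gene length here too, from 0.35 in the shortest bin to -0.17 in the longest. The part of that trend in these values was not tested. Without both HFD+AE 3 and HFD+RE 3, 5 regulators passed, Ppargc1b at 1.01 (adjusted p = 0.024), Polg at -0.69 (0.032), Sirt1 at -1.08 (0.0035), Prkaa1 at -0.65 (0.011) and Prkaa2 at -1.04 (0.006). Over all genes 22.1% passed in that fit, with 2 libraries in each trained group. On the first principal component both omitted libraries lay towards the other trained group. Leaving them out widens the difference along it, so these passes are not separate support for a difference.

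Against the normal diet, HFD+RE vs NC called 3.96% of all genes and HFD+AE vs NC 1.38%, and 0 of the 10 regulators in either. DESeq2 called 0 of the 10 in both, against 11% and 4.46% of all genes. Unadjusted p lay under 0.05 for 2 regulators, Esrra and Prkaa1, in HFD+RE vs NC (24.5% of all genes) and for 1, Sirt3, in HFD+AE vs NC (14%). HFD+RE libraries lay below NC without overlap for Prkaa1 (-0.52, SE 0.19, adjusted p = 0.12; 12.4% of all genes) and above it for Sirt3 (13.7%). Those of HFD+AE stood clear of NC for Sirt3 alone, which was higher (12.1%). Without HFD+RE 3, Polg (-0.68, adjusted p = 0.034), Sirt1 (-0.88, 0.042) and Prkaa1 (-0.66, 0.035) passed in HFD+RE vs NC, where 21% of all genes then passed, against 3.96% with all 12 libraries. HFD+RE 3 was the HFD+RE library nearest to NC on the first principal component, so these passes are not separate support for a difference.

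Per kilobase of exon, over all 12 libraries, Sirt3 was the most abundant at 12.9 ± 1.47 CPM per kilobase (SD, n = 12), followed by Tfam at 9.66 ± 1.16, Prkaa2 at 9.5 ± 2.8 and Esrra at 8.13 ± 2.02. A lower tier held Polg at 3.15 ± 0.891, Prkaa1 at 3.12 ± 0.693, Sirt1 at 2.47 ± 0.785, Ppargc1b at 2.27 ± 0.635 and Ppargc1a at 2.11 ± 0.436, and Nrf1 came last at 0.953 ± 0.1. Neighbours in this order overlapped in range except Esrra and Polg, and Ppargc1a and Nrf1. The transcript of the coactivator PGC-1alpha was thus among the scarcer of the 10 in liver in every group.

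**Figure D4:**
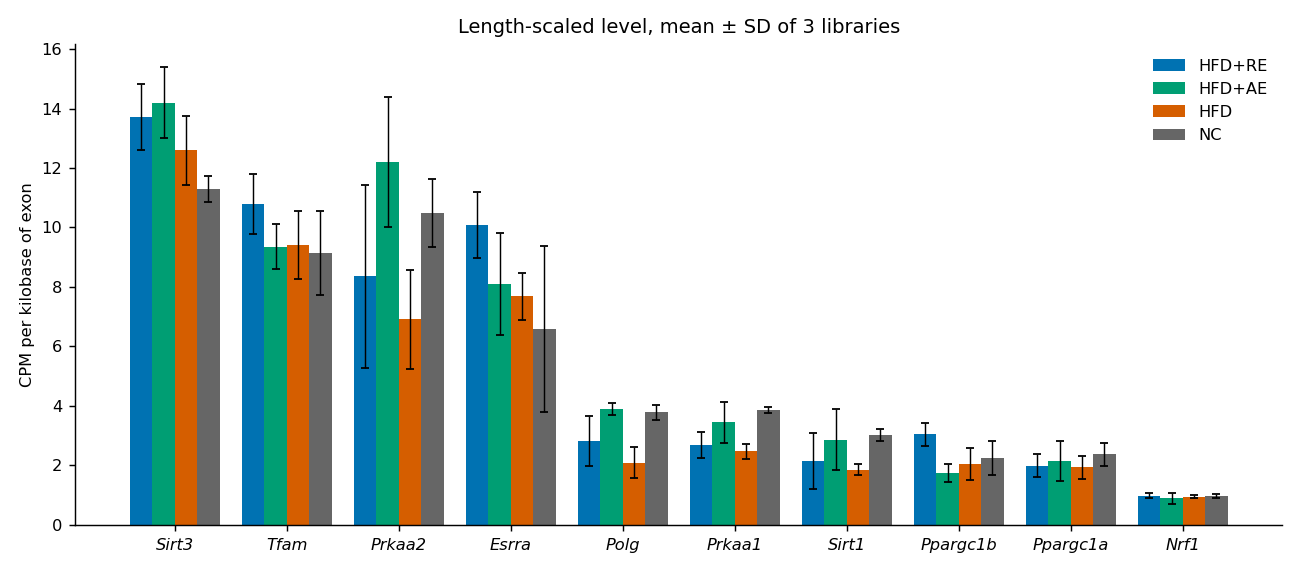
Level per kilobase of exon (vertical axis, CPM per kilobase) of the 10 genes in order of their mean over 12 libraries; bars are the mean and error bars the SD of 3 libraries, for HFD+RE, HFD+AE, HFD and NC from left to right. Sirt3, Tfam, Prkaa2 and Esrra form an upper tier at 8.13 to 12.9 and Nrf1 is lowest at 0.953.

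Over the 12 libraries, which differ in depth and RNA composition, the genes nearest to each regulator in log2 CPM centred on its mean were found by root mean square difference. For Polg they were Pdxdc1 (0.091), Zdhhc5 (0.093) and Il6st (0.099), where the median over all genes was 0.627 and the SD of Polg itself 0.459. For Prkaa2 they were Xpr1 (0.069), Zbtb44 (0.098) and Ankrd28 (0.119), and for Prkaa1 Ell2 (0.071), Etv3 (0.074) and Man1a2 (0.084). Dpy19l4 (0.106) was nearest to Sirt1, and it, Xpr1 and Ell2 have 8101, 17880 and 9828 exon bases, longer than the median gene tested. Tfam, whose level varied little, was nearest to Prdx3 (0.09), a mitochondrial peroxidase, and Sirt3 to Ociad2 (0.041). Chd6 was nearest to Ppargc1a (0.144), Exo5 to Ppargc1b (0.162), Trub2 to Esrra (0.148) and Phf23 to Nrf1 (0.067).

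Among the partners of these regulators, the receptor gene Esrrg rose in all 3 groups on the high-fat diet relative to NC. Esrrg encodes ERRgamma, a relative of ERRalpha that also binds PGC-1 coactivators. It had 7.53, 9.57 and 5.86 CPM in HFD+RE, 14.2, 14.9 and 12.1 in HFD+AE, 6.13, 7.56 and 5.82 in HFD, and 2.21, 2.26 and 1.58 in NC. The NC libraries lay below all others, and the HFD+AE libraries above all others.

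Esrrg rose by 1.93 in HFD+RE vs NC (SE 0.23, adjusted p = 0.003), by 2.77 in HFD+AE vs NC (SE 0.24, adjusted p = 0.00033) and by 1.69 in HFD vs NC (SE 0.23, adjusted p = 0.0022), and these calls held in every alternative. Against HFD, HFD+AE stood at 1.08 (SE 0.22, adjusted p = 0.057), called in 10 of 21 alternatives with a range of 0.0011 to 0.29. Single libraries decide that call, at 0.027 without HFD 2, 0.023 without HFD+RE 3 and 0.048 without HFD+RE 5. HFD 2 had the highest Esrrg of the HFD libraries, so the pass without it is not separate support for a difference. HFD+RE lay below HFD+AE without overlap, at -0.85 (SE 0.22, adjusted p = 0.61), and at -0.92 (0.027) without both HFD+AE 3 and HFD+RE 3.

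Esrrb, the third ERR gene, was scarce and went the other way from Esrrg in HFD vs NC. Against HFD it had the same sign as Esrrg, at 1.21 in HFD+AE (adjusted p = 0.096) and 0.66 in HFD+RE (0.67). It had 1.32, 0.908 and 0.533 CPM in HFD+RE, 1.15, 1.2 and 1.69 in HFD+AE, 0.35, 0.756 and 0.644 in HFD, and 1.19, 1.26 and 1.87 in NC. It fell in HFD vs NC by 1.31 (SE 0.40, adjusted p = 0.044), a call that ended on dropping NC 2 (0.076), NC 4 (0.093), NC 5 (0.12), HFD 1 (0.17), HFD 3 (0.13), HFD+AE 1 (0.057), HFD+AE 2 (0.061) or HFD+RE 4 (0.054), and with either other scaling or the length trend removed (0.054 to 0.064).

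**Figure D5:**
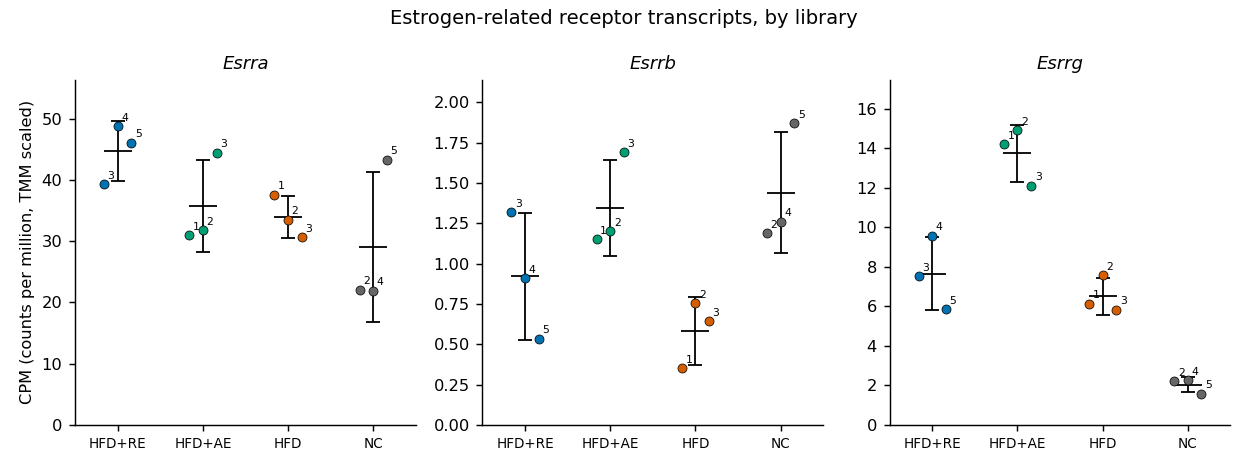
Level in CPM (vertical axes, from 0) of Esrra, Esrrb and Esrrg in each library, by group from HFD+RE, HFD+AE and HFD to NC; points are libraries with their number, the long dash is the mean of 3 and the bar its SD. Esrrg is at most 2.26 CPM in NC and at least 5.82 in every other library, and it is highest in HFD+AE.

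Of 17 tested genes among PGC-1, ERR and NRF partners and corepressors, 1 rose (Esrrg), 5 fell and 11 did not pass in HFD vs NC, with a median of -0.59. Over all genes tested 8.38% rose and 7.19% fell in this comparison, and the counts of this list and of those that follow stand beside these shares. Hnf4a, a hepatocyte nuclear receptor that PGC-1alpha coactivates, fell by 0.84 (SE 0.19, adjusted p = 0.016; 0.087 without HFD 1 and 0.081 without HFD 3). It also fell in HFD+RE vs NC by 0.75 (SE 0.19, adjusted p = 0.044), but not in 13 of 21 alternatives: on dropping any NC library, HFD 1, HFD 3, HFD+AE 1, HFD+AE 2, HFD+RE 4 or HFD+RE 5 (0.06 to 0.15), with no filter (0.067), with only those groups fitted (0.097), with length removed (0.058) or with a replicate block (0.064). Yy1, a transcription factor linked to PGC-1alpha in muscle, fell by 0.59 (SE 0.16, adjusted p = 0.028; 0.05 to 0.14 on dropping any NC library, HFD 1 or HFD 3, and 0.062 to 0.081 with library totals, no filter or length removed). The others that fell were Esrrb, Med1, a Mediator subunit, at -1.01 (adjusted p = 0.048) and Cnot1, a scaffold of the CCR4-NOT deadenylase, at -1.20 (adjusted p = 0.029). Cnot1 no longer passed on dropping NC 2 (0.075), NC 4 (0.097), HFD 1 (0.12) or HFD 3 (0.14), nor Med1 on dropping NC 2 (0.1), NC 4 (0.097), NC 5 (0.11), HFD 1 (0.17), HFD 3 (0.18), HFD+AE 1 (0.053) or HFD+AE 2 (0.063), or with the other scalings (0.064 and 0.1). None of the 17 passed by edgeR in HFD+AE vs HFD, HFD+RE vs HFD or HFD+RE vs HFD+AE, where 7, 1 and 2 had an unadjusted p under 0.05 (26.4%, 8.77% and 8.02% of all genes) and DESeq2 called 6, 0 and 0 (12.1%, 1.13% and 0.137%).

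AMPK needs regulatory subunits and an upstream kinase. Of 13 such genes, 1 rose and 12 did not pass in HFD vs NC (median 0.04): Strada, a pseudokinase that activates LKB1, rose by 0.91 (SE 0.24, adjusted p = 0.027), but not on dropping NC 2 (0.082), NC 4 (0.098), HFD 1 (0.095) or HFD 3 (0.14). Of 12 AMPK substrates, 2 fell and 10 did not pass (median -0.67). Ulk1, a kinase that starts autophagy, fell by 0.74 (SE 0.21, adjusted p = 0.036), but not on dropping NC 2 (0.15), NC 4 (0.05), HFD 1 (0.12) or HFD 3 (0.14), with the length trend removed (0.065) or with the other scalings (0.056 and 0.096). Acaca, the acetyl-CoA carboxylase of lipogenesis, fell by 0.81 (SE 0.25, adjusted p = 0.042), but not on dropping any 1 of the 6 HFD and NC libraries (0.077 to 0.16) or HFD+AE 2 (0.052), with length removed (0.15) or length and GC content (0.12), or with the other scalings (0.071 and 0.13).

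Of 12 genes of other sirtuins and NAD metabolism, 2 rose and 10 did not pass in HFD vs NC, with a median of 0.42. Nmnat3, which encodes a mitochondrial enzyme of NAD synthesis, had 9.17, 11.4 and 9.57 CPM in HFD+RE, 5.26, 6.89 and 8.24 in HFD+AE, 8.1, 6.65 and 8.12 in HFD, and 4.5, 3.18 and 2.75 in NC. It rose by 1.53 in HFD+RE vs NC (SE 0.24, adjusted p = 0.0063) and by 1.14 in HFD vs NC (SE 0.23, adjusted p = 0.012; 0.054 without NC 4, 0.053 without HFD 1 and 0.057 without HFD 3). Sirt5, a mitochondrial sirtuin that removes succinyl groups, rose by 0.77 in HFD vs NC (SE 0.22, adjusted p = 0.035), but not on dropping NC 2 (0.082), NC 4 (0.081), NC 5 (0.089), HFD 1 (0.12) or HFD 3 (0.12).

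Around Tfam and Polg, 21 other genes of mitochondrial DNA replication and transcription were tested, and in HFD vs NC 1 rose, 2 fell and 18 did not pass (median -0.10). Mterf2, of the mitochondrial termination factor family, rose by 1.74 (SE 0.38, adjusted p = 0.015; 0.058 without NC 4 and 0.071 without HFD 3). In HFD+RE vs NC it rose by 1.55 (SE 0.38, adjusted p = 0.04), but not in 14 of 21 alternatives: on dropping any 1 library other than HFD+AE 3 and HFD+RE 3 (0.051 to 0.14), with library totals only (0.051), with only those groups fitted (0.097), with length removed (0.064) or with a replicate block (0.057). Lig3, the DNA ligase of mitochondria, fell by 1.03 (SE 0.26, adjusted p = 0.024), but not on dropping NC 2 (0.064), NC 4 (0.084), HFD 1 (0.1) or HFD 3 (0.11). Dna2, a nuclease and helicase, fell by 0.62 (SE 0.19, adjusted p = 0.043), but not on dropping any 1 of the 6 HFD and NC libraries (0.07 to 0.17), HFD+AE 2 (0.06) or HFD+RE 5 (0.054), nor with the other scalings, no filter or the trends removed (0.052 to 0.2). Among 10 genes of mitochondrial fusion and fission 0 were called by edgeR, with 6 at an unadjusted p under 0.05 (34.7% of all genes) and 4 called by DESeq2 (23.8% of all genes), all lower in HFD.

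Known mitochondrial targets of PGC-1, ERR and NRF1, such as citrate synthase and cytochrome c, were called by edgeR in 0 of 20 cases in HFD vs NC, with a median of 0.12. Of the 20, 7 had an unadjusted p under 0.05 and DESeq2 called 2, where the shares over all genes were 34.7% and 23.8%. Of 6 targets of PGC-1alpha outside mitochondria 2 fell, Hnf4a and Lpin1, a phosphatidate phosphatase, at -1.77 (SE 0.42, adjusted p = 0.019; 0.061 without NC 2, 0.062 without HFD 1 and 0.071 without HFD 3). Of the 13 mRNAs of the mitochondrial genome 4 rose and 9 did not pass (median 0.61). The 4 that rose had low means of 7.31 to 40.8 CPM in NC. The abundant mt-Co1 (23900), mt-Cytb (10900), mt-Nd2 (6860) and mt-Nd1 (5260) were not called, nor was the scarce mt-Atp8 (0.228). Called or not, 12 of the 13 had a positive log2 difference. Together the 13 held 7.49% to 10.5% of counts in HFD libraries and 5.17% to 6.85% in NC libraries. Among the 4 that were called, mt-Nd4l had 6.22, 9.97 and 16 CPM in HFD+RE, 7.68, 8.33 and 10.3 in HFD+AE, 54.3, 27.4 and 53.6 in HFD, and 10.5, 8.61 and 12.4 in NC. It rose by 2.10 in HFD vs NC (SE 0.33, adjusted p = 0.0043).

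With AE training, mt-Nd4l fell by 2.36 (SE 0.34, adjusted p = 0.038) in HFD+AE vs HFD and was the only gene of the pathway lists to pass there by edgeR. It no longer passed on dropping NC 2 (0.058), NC 4 (0.064), HFD 1 (0.15), HFD 3 (0.17), HFD+AE 1 (0.14), HFD+AE 2 (0.18) or HFD+RE 4 (0.061). Its reads overlap mt-Nd4, and nuclear copies of mitochondrial DNA can share reads with it, so its single value is uncertain. The share of counts from mitochondrial rRNA moved along with it, at 0.685% to 1.71% in HFD+RE, 0.771% to 0.867% in HFD+AE, 1.76% to 3.26% in HFD and 0.708% to 0.924% in NC, and its part in these values was not tested. The other called mitochondrial mRNAs in HFD vs NC were mt-Nd3 (1.42, adjusted p = 0.021), mt-Co2 (1.57, 0.027) and mt-Co3 (2.48, 0.039), each of which ceased to pass on dropping NC 2, NC 4, HFD 1 or HFD 3 (0.062 to 0.16) or with length and GC content removed (0.095 to 0.31). The same held for mt-Co2 and mt-Co3 with no filter (0.081 and 0.15), and for mt-Co3 without NC 5 (0.075) or with length removed (0.067). Nuclear copies of mitochondrial DNA can share reads with mt-Nd3, mt-Co2 and mt-Co3 as well, so their values are also uncertain.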

How the data were processed

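The authors deposited whole-number read counts per gene for the 12 libraries as 1 table, not normalized. The submitters' processing notes name fastp, HISAT2 2.2.1, featureCounts 2.0.6, DESeq2 1.40.1 and the mm10 build, with no further settings. The strand option is not given in the sources used here, nor is the annotation version. Counts per gene do not tell isoforms apart.

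The main test was the quasi-likelihood F-test of edgeR 4.0.16 (R 4.3.3; robust, TMM scaling, filter by expression), with all 12 libraries in 1 model of 4 group means and Benjamini-Hochberg adjustment over 18305 genes. A gene was called at an adjusted p below 0.05, and every adjusted p is from this test unless DESeq2 (1.42.0) is named. Log2 changes and their 95% intervals come from the fit; CPM values use TMM-scaled totals. The fit was tested on simulated data. Gene length came from the table, and GC content from GENCODE M21, which held 53292 of the 55291 names and 98.1% of the tested genes. Trends on length and GC content were removed as splines with 5 degrees of freedom.

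The 10 genes, the lists and the alternatives were chosen with earlier results of these data known. The rule for named genes took the 10 genes, up to 3 called members of each pathway list by smallest p, and the 3 nearest genes of each regulator, of which part is given. Esrrb, Cnot1, Med1 and mt-Co3, and the values of Esrrg where it was not called, were added after their values were seen. Replicate pairs differed by far more than sampling noise, so all 12 libraries were kept. The alternatives were DESeq2, 2 other scalings, no low-count filter, a fit of the 2 groups compared, both trends, each library left out, HFD+AE 3 and HFD+RE 3 left out together, and a replicate block. HFD+AE 3 and HFD+RE 3 had stood apart from their groups, so calls gained without both are not separate support for a difference.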

Additional observations from a re-analysis of the deposited data

How the results depend on the processing

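Over 60 log2 changes of the 10 regulators and 1220 values under alternatives, 1172 kept their side of the threshold, 13 lost a call, 35 gained one and 0 called values changed sign. The number of regulators called in HFD vs NC, 2 as reported, was 1 with upper-quartile scaling, library totals only or no low-count filter, and 4 with only these groups fitted or without both HFD+AE 3 and HFD+RE 3. In HFD+AE vs HFD, 0 as reported, it was 2 with DESeq2, no filter or length and GC content removed, 1 with only these groups fitted and 4 without both libraries. Without both it was 5 in HFD+RE vs HFD+AE and 4 in HFD+RE vs NC. Leaving out each library gave 0 to 3 in HFD vs NC, 0 to 2 in HFD+AE vs HFD, 0 to 3 in HFD+RE vs NC and 0 in the other comparisons.

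Over all genes, the calls in HFD vs NC (2851) were 4364 with DESeq2, 4928 with only these groups and 6258 without both libraries, and 411 to 4462 with each library left out. The split of 1534 higher and 1317 lower was 2037 and 953 with upper-quartile scaling, 2643 and 614 with library totals, and 1142 and 1457 with the length trend removed. In HFD+AE vs HFD (9) they were 2211 with DESeq2, 61 with upper-quartile scaling, 772 with totals, 953 with no filter, 649 with only these groups, 95 and 576 with length or length and GC removed and 4253 without both, and 0 to 1930 with each left out. In HFD+RE vs HFD (2) they were 206, 43, 8 and 5 with DESeq2, no filter, length and GC removed and without both, and 2 to 53 with each left out. In HFD+RE vs HFD+AE (0) they were 25 with DESeq2, 2 with no filter and 4170 without both, and 0 to 2. In HFD+AE vs NC (253) they were 817 with DESeq2, 408 with no filter, 82 with only these groups and 423 with length and GC removed, and 44 to 373. In HFD+RE vs NC (724) they were 2009 with DESeq2, 110 with only these groups, 1140 with length and GC removed and 5989 without both, and 112 to 3983. The cause was not tested.

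Scaling moved the median of all genes in HFD vs NC from 0.01 to 0.13 (upper quartile) and 0.21 (totals). Relative to these medians Polg stood at -0.87, -0.88 and -0.89 and Prkaa1 at -0.65, -0.66 and -0.67. Without being called, Nrf1 changed sign in HFD vs NC with both scalings and Ppargc1b with totals, and in HFD+AE vs HFD, where the median went from 0 to -0.12 and -0.22, Esrra did with both and Ppargc1a and Sirt3 with totals. In HFD+RE vs HFD, where it went from 0.04 to -0.04 and -0.12, Ppargc1a and Nrf1 did with both and Prkaa1 and Sirt3 with totals, and Sirt3 did with totals in HFD+RE vs HFD+AE.

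Same-numbered libraries did not clearly deviate together (r of -0.12, 0.11 and 0.09 in HFD+AE and HFD, and -0.09 and 0.16 in HFD+RE and NC). For HFD+RE 3, r was -0.5 with HFD+AE 3 and -0.27 with HFD 3. For NC 2 it was 0.05 with HFD 2 and 0.05 with HFD+AE 2. With 3 libraries a group these values cannot exclude that the numbers pair samples. With the number as a replicate block, 2100 genes and 2 regulators were called in HFD+AE vs HFD, and 2554 genes and 0 regulators in HFD+RE vs NC, where only libraries 4 and 5 entered. Not every library correlated best with its own number. A block could not be fitted for the other comparisons, whose groups share fewer than 2 numbers.

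With 3 libraries a group the standard error of a regulator on the log2 scale ran from 0.15 (Sirt3) to 0.31 (Sirt1). Differences near that size were not detectable, and much larger ones could also fail the edgeR test. Polg at 0.90 in HFD+AE vs HFD (adjusted p = 0.061) and Ppargc1b at 0.79 in HFD+RE vs HFD+AE (0.61) were not called. A regulator that was not called may therefore still differ.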
